A study of Mus musculus with 15 samples.

Results

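The coagulation and plasminogen system was followed in macrophages through 9 genes. These were *F3*, *F7* and *F10* of the coagulation cascade, *Plau*, *Plaur* and *Serpinb2* of plasminogen activation, and *Thbd*, *Thbs1* and *F13a1*, whose products restrain thrombin, bind to cells and matrix, and cross-link fibrin. The genes were taken by name: each of the 51763 Ensembl rows of the count table was given its mouse symbol from the GENCODE M21 annotation of GRCm38, and each of the 9 names matched 1 row. All 9 genes had enough counts to be tested, among 16919 genes in all. RNA was sequenced from 15 libraries of bone marrow-derived macrophages (BMDMs), which were grown with M-CSF from the marrow of wild-type C57BL/6NTac females aged 8 to 10 weeks and then stimulated for 24 h, with 3 libraries per condition. Control cultures received PBS. The HMGB1 protein was given at 5 µg/mL either fully reduced (frHMGB1) or in its disulfide form (dsHMGB1), and LPS was given at 1000 ng/mL alone or together with IFNγ at 20 ng/mL (LPS/IFNγ). HMGB1 is a nuclear protein that acts as an alarm signal outside the cell, and its frHMGB1 and dsHMGB1 forms differ in whether a pair of cysteines is joined by a disulfide bond. For LPS/IFNγ the sources give different LPS concentrations, 100 ng/mL where the protocol is described and 1000 ng/mL where the treatment is named. The frHMGB1 was kept in DTT, and dsHMGB1 came from another laboratory without DTT, so the form of the protein and its preparation cannot be told apart. Cells of 5 mice were pooled before seeding, so the libraries of a condition are technical replicates, and errors and p-values here describe variation among cultures of that pool and not among mice.

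Coagulation starts when tissue factor, the product of *F3*, binds factor VIIa at a cell surface and the complex activates factor X. Factor Xa then makes thrombin, which cuts fibrinogen to fibrin, and factor XIII cross-links the fibrin. Thrombomodulin, the product of *Thbd*, binds thrombin and turns it towards activating protein C, which shuts the cascade down. Fibrin is dissolved by plasmin, which urokinase (uPA, *Plau*) makes from plasminogen while bound to its receptor (uPAR, *Plaur*), and plasminogen activator inhibitors such as PAI-2 (*Serpinb2*) block urokinase. Monocytes and macrophages are known to display tissue factor and uPAR after contact with LPS, and extravascular clotting at such cells is a known part of inflammation.

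The upstream sequences are shown for the 4 genes whose levels rose most, because 3 of them share a short motif. RefSeq promoter entries (GRCm38.p6) were found for 6 of the 9 genes: *Serpinb2*, *Plaur*, *F3*, *F7*, *F10* and *F13a1*. Each window of 300 bases, from 250 before to 50 after the start of the transcript, was searched on both strands for the letters TGANTCA, which the AP-1 family binds, GGG followed by any 2 bases and TTTCC (NF-kB), TTCNNNGAA (STAT factors) and TATAAA. The AP-1 letters were present in 3 of the 6 windows, at base -94 in *Serpinb2*, at base -69 in *Plaur* and at bases -146 and -135 in *F3*, and 7.81% of 32851 windows of the same length held them. No window of *F7*, *F10* or *F13a1* held these letters. The NF-kB letters were found in none of the 6 windows, against 1.63% of all. Only this exact string was searched, and a window without it can still hold another form of the site. *Serpinb2* also held TATAAA at base -29 (13.6% of all windows) and the STAT letters at base 10 (8.3%), *F3* held TATAAA on the reverse strand from base 43, and no motif overlapped another. A match is a description of letters and not a site. The first 250 bases of 4 windows, which end at the base before the transcript start, are printed 5′ to 3′ on the plus strand with the AP-1 letters in capitals, from chr1:107511173-107511422 (*Serpinb2*), chr7:24462233-24462482 (*Plaur*), chr3:121723287-121723536 (*F3*) and chr8:13037058-13037307 (*F10*).
*Serpinb2*: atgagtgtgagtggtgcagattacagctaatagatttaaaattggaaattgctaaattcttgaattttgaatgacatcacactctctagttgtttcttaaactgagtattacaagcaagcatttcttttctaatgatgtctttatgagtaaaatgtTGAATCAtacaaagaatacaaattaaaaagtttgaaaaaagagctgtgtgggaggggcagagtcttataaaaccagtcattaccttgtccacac
*Plaur*: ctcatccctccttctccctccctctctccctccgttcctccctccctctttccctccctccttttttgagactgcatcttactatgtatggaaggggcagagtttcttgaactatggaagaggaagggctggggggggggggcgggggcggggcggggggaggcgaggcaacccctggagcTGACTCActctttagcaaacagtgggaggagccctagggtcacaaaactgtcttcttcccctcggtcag
*F3*: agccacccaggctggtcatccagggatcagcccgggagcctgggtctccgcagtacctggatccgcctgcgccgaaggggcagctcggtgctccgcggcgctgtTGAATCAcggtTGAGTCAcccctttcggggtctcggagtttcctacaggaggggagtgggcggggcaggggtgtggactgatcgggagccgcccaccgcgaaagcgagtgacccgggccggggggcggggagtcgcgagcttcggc
*F10*: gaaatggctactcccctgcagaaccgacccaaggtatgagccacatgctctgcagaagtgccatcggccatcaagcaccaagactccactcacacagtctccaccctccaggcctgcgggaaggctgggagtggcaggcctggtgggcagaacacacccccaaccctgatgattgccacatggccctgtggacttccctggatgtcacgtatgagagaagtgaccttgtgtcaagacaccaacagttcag

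The libraries held between 40934540 and 80925478 counts. PBS replicate 3 stood apart from the other PBS libraries: in 10102 protein-coding genes its genes with exons in the shortest quartile (up to 2942 bp) were higher, by a median log2 difference of 0.69, and those in the longest quartile were lower, by a median of -0.95. Values without PBS replicate 3 are therefore given where it decides a result, and the same relation was weaker in dsHMGB1 replicate 1 (0.20 and -0.24). Scaling matters here as well. When libraries were scaled by their totals alone, the median log2 difference of all tested genes in edgeR moved from -0.11 to -0.46 (dsHMGB1), from -0.27 to -0.89 (LPS) and from -0.15 to -0.81 (LPS/IFNγ), each against PBS, so small differences are read against that shift. All 8 macrophage markers passed the filter, and their summed level was 21895 to 26183 CPM (counts scaled to the library size) in PBS, 27009.8 to 27281 in frHMGB1, 19554 to 21038 in dsHMGB1, 16137 to 16844 in LPS and 13519.8 to 13865 in LPS/IFNγ. Most of this sum was *Lyz2*. In counts normalized by the size factors of DESeq2, *Lyz2* was the 1 marker lower in every LPS/IFNγ library than in any PBS library. On that scale 5 of the 8 (*Adgre1*, *Itgam*, *Fcgr1*, *Mertk* and *Cd14*) lay higher. The sum in CPM rests on another scaling, in which single markers can take other positions, so its fall is not assigned to *Lyz2* alone. The part of these markers in the results was not tested. Endothelial markers summed to 11.9 to 31.1 CPM in PBS and 99.1 to 104 CPM in LPS/IFNγ, most of it *Kdr*. Fibroblast markers summed to 151 CPM in PBS replicate 3 and to 258 to 364 CPM in the other libraries. Over all libraries, megakaryocyte and platelet markers summed to 0.383 to 8.66 CPM and neutrophil markers to 9.04 to 27.7 CPM. Hepatocyte markers, of which 0 of 5 passed the filter, reached at most 0.14 CPM. In bulk RNA, fewer cells of a type and less RNA per cell cannot be told apart.

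Levels below are counts normalized by the size factors of DESeq2, fold changes are the unshrunken log2 values of DESeq2 with their standard error (SE), and a gene is called changed when the quasi-likelihood F test of edgeR gave a Benjamini-Hochberg adjusted p under 0.05 over all 16919 genes. In frHMGB1-stimulated BMDMs, 1 of the 9 genes was higher than in PBS and 0 were lower, against 1.31% and 5.69% of all tested genes, with the same counts at an unadjusted p under 0.05 and by the Wald test of DESeq2. In dsHMGB1, 5 were higher and 1 was lower (23.3% and 24.2% of all genes), in LPS also 5 and 1 (26.7% and 36.2%), and in LPS/IFNγ 6 and 1 (29% and 31.2%). The shares of higher genes lay above these backgrounds in dsHMGB1, LPS and LPS/IFNγ, and the shares of lower genes below them. The median log2 fold change of the 9 genes was 1.40 for dsHMGB1, 0.94 for LPS and 1.19 for LPS/IFNγ, while that of all tested genes, also by DESeq2, was -0.10, -0.21 and -0.12. Above a log2 fold change of 2, the cut-off of the study, lay *Serpinb2* in frHMGB1 (0.609% of all genes), 3 genes in dsHMGB1 (*Serpinb2*, *F3* and *F10*, against 8.43%) and 4 each in LPS (10.9%) and LPS/IFNγ (12.1%), where *Plaur* joined them. Below -2 lay *Thbd* in dsHMGB1 (4.76% of all genes), LPS (14%) and LPS/IFNγ (9.69%) and no member in frHMGB1 (6.83%). Without PBS replicate 3, the counts of higher and lower genes were 1 and 1 in frHMGB1 (8.41% and 9.09% of all genes in that fit) and 5 and 1 in dsHMGB1 (29.8% and 29%). They were 7 and 1 in both LPS (32.9% and 38.3%) and LPS/IFNγ (33.3% and 34.4%).

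**Figure D1:**
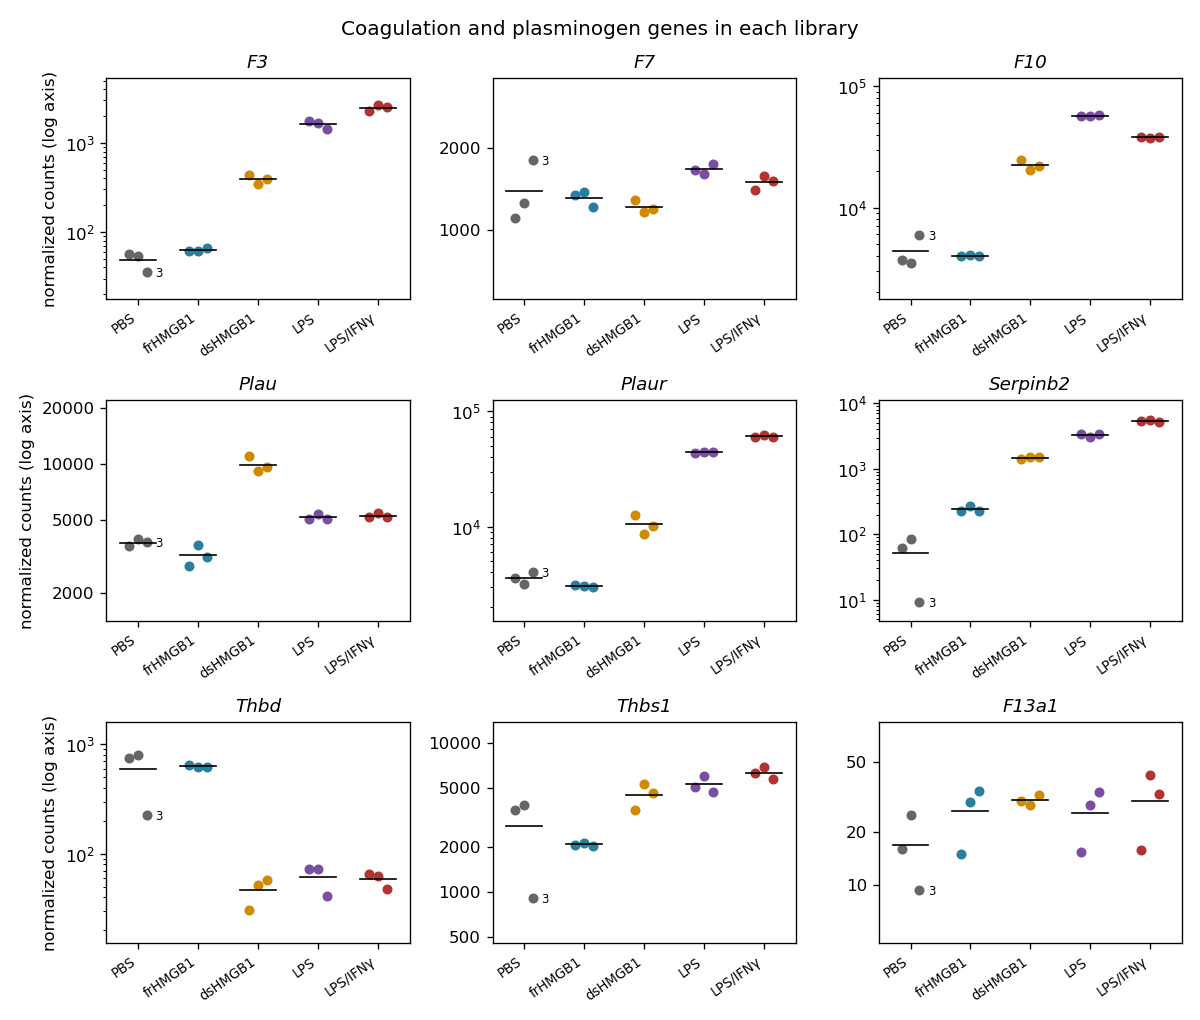
Normalized counts (log axis, a separate range in each panel) of the 9 genes in each of the 15 libraries, with 3 points per condition in the order of the replicate numbers, a bar at the mean and PBS replicate 3 marked. *F3*, *Plaur* and *Serpinb2* climb from dsHMGB1 to LPS to LPS/IFNγ, *F10* peaks in LPS, *Plau* peaks in dsHMGB1, and *Thbd* drops in all 3.

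*F3*, which encodes tissue factor, was the gene of the initiation step with the steepest rise. It spans 121723537 to 121735048 of chromosome 3 on the plus strand (ENSMUSG00000028128, GRCm38). Its normalized counts were 56.2, 53.6 and 35.1 in the PBS libraries and 60.9, 61.3 and 66.9 in frHMGB1. They were 433, 349 and 393 in dsHMGB1, 1758, 1668 and 1445 in LPS and 2296, 2649.8 and 2533 in LPS/IFNγ. The groups did not overlap at any step of this order. The log2 fold change over PBS was 2.97 (SE 0.17, adjusted p = 1.07e-08) in dsHMGB1, 5.03 (SE 0.17, adjusted p = 6.83e-11) in LPS and 5.65 (SE 0.17, adjusted p = 2.41e-11) in LPS/IFNγ, and each passed the test. In frHMGB1, *F3* lay above PBS in all 3 libraries by a log2 value of 0.34 (95% interval -0.05 to 0.73), which was not called (adjusted p = 0.346). 

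*F7*, which encodes the protease that tissue factor binds, behaved unlike *F3*. It lies on chromosome 8 (13026034 to 13035809, plus strand, ENSMUSG00000031443). The PBS libraries held 1109, 1262 and 1815 normalized counts, of which replicate 3 was the highest of all 15 libraries, and the frHMGB1 libraries held 1351, 1381 and 1211. The dsHMGB1 libraries held 1286, 1165 and 1199.6, the LPS libraries 1662, 1611 and 1754 and the LPS/IFNγ libraries 1403, 1577 and 1517. No comparison with PBS was called: the log2 fold change was -0.19 in dsHMGB1 (95% interval -0.51 to 0.12), 0.27 in LPS (-0.05 to 0.58) and 0.11 in LPS/IFNγ (-0.21 to 0.42), intervals that leave out a change of 1 in either direction. The direction in LPS and LPS/IFNγ depended on the processing. Without PBS replicate 3, *F7* was called higher in LPS (log2 fold change 0.49, adjusted p = 1.80e-04) as well as LPS/IFNγ (0.33, adjusted p = 0.00994), while with scaling by library totals it was called lower in both (-0.40 and -0.55) and in dsHMGB1 (-0.53).

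*F10*, which encodes factor X, starts 1499 bp downstream of the end of *F7* on the same strand (13037308 to 13056676, ENSMUSG00000031444) and rose strongly. Normalized counts of *F10* were 3682, 3496 and 5934 in PBS and 3972, 4042 and 3973 in frHMGB1. They reached 24835, 20506 and 21846 in dsHMGB1, 56792, 56748 and 58268 in LPS and 38322, 37523 and 38481 in LPS/IFNγ. LPS was the highest condition, and adding IFNγ went with a lower level. Over PBS, the log2 fold change was 2.36 (SE 0.17, adjusted p = 1.82e-08) in dsHMGB1, 3.71 (SE 0.17, adjusted p = 2.08e-10) in LPS and 3.13 (SE 0.17, adjusted p = 8.14e-10) in LPS/IFNγ, each called, and -0.13 in frHMGB1 (95% interval -0.47 to 0.21), not called. *Proz*, which encodes protein Z and is the next gene of the pathway on this strand (13060914 to 13076026), moved the other way: it was called lower in LPS (-1.03, SE 0.26, adjusted p = 0.00218) and LPS/IFNγ (-1.65, SE 0.26, adjusted p = 8.59e-05). *F10* thus rose in 2 conditions in which *Proz* was called lower with all libraries. In dsHMGB1, where *F10* rose too, *Proz* was not called with all libraries (-0.41 in edgeR, adjusted p = 0.192). Without PBS replicate 3 it was called lower there (-0.69, adjusted p = 5.57e-04).

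*Plau*, which encodes urokinase, was the only one of the 9 genes called higher in dsHMGB1 than in both LPS and LPS/IFNγ. The gene lies on chromosome 14 (20836660 to 20843385, plus strand, ENSMUSG00000021822). Its normalized counts were 3583, 3915 and 3764 in PBS and 2821, 3649 and 3124 in frHMGB1. The dsHMGB1 libraries held 11023, 9103 and 9571, above every other library. LPS gave 5034, 5382 and 5013 and LPS/IFNγ 5192, 5402 and 5160.1, with overlapping ranges. Relative to PBS, *Plau* had a log2 fold change of 1.40 (SE 0.11, adjusted p = 1.90e-07) in dsHMGB1, 0.45 (SE 0.11, adjusted p = 0.00644) in LPS and 0.48 (SE 0.11, adjusted p = 0.00234) in LPS/IFNγ, each called. With scaling by library totals, the values in LPS and LPS/IFNγ turned to -0.24 and -0.20 and were not called, although both stayed above the median of all genes, whereas the rise in dsHMGB1 kept its call. *Plau* in dsHMGB1 exceeded LPS by a log2 value of 0.94 (SE 0.11, adjusted p = 2.01e-05) and LPS/IFNγ by 0.91 (SE 0.11, adjusted p = 1.82e-05).

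*Plaur*, which encodes the urokinase receptor, rose most with LPS/IFNγ. The gene lies on chromosome 7 (24462484 to 24475968, plus strand, ENSMUSG00000046223). In PBS the normalized counts were 3609, 3188 and 3995, and in frHMGB1 3100.1, 3027 and 3014. They were 12561, 8697 and 10048 in dsHMGB1, 43397, 44594 and 44560.5 in LPS and 60046, 62147 and 60373 in LPS/IFNγ. The log2 fold change over PBS was 1.54 (SE 0.13, adjusted p = 1.23e-07) in dsHMGB1, 3.62 (SE 0.13, adjusted p = 3.34e-11) in LPS and 4.08 (SE 0.13, adjusted p = 1.09e-11) in LPS/IFNγ, each called. For comparison, the ligand *Plau* changed by 1.40, 0.45 and 0.48 on the same log2 scale in these conditions. In frHMGB1 every library of *Plaur* lay just below the PBS libraries (-0.24, SE 0.13, adjusted p = 0.377), which was not called.

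*Serpinb2*, which encodes PAI-2, had the largest fold change of the 9 genes in each stimulation. It lies on chromosome 1 (107511423 to 107535478, plus strand, ENSMUSG00000062345) within a cluster of related serpin genes, and the annotated *Serpinb10* that overlaps it on the same strand held 1 count over all libraries. Its normalized counts were 61.4, 84.5 and 9.37 in PBS and 228, 272 and 225 in frHMGB1. They were 1422, 1505 and 1495 in dsHMGB1, 3449, 3028 and 3366 in LPS and 5437, 5546 and 5189 in LPS/IFNγ. The 5 conditions did not overlap, and *Serpinb2* was the only one of the 9 genes called in frHMGB1 against PBS. The log2 fold change over PBS was 2.19 (SE 0.41, adjusted p = 0.00515) in frHMGB1, 4.80 (SE 0.40, adjusted p = 1.14e-06) in dsHMGB1, 5.96 (SE 0.40, adjusted p = 1.30e-07) in LPS and 6.67 (SE 0.40, adjusted p = 4.73e-08) in LPS/IFNγ. Its low PBS replicate 3 raised these values: without it the log2 fold changes were 1.73 in frHMGB1 (adjusted p = 6.39e-08), 4.33 for dsHMGB1, 5.48 for LPS and 6.19 for LPS/IFNγ, all called. When frHMGB1 and PBS were fitted alone, the same difference had an adjusted p of 0.300 and was not called.

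*Thbd*, which encodes thrombomodulin, was the only one of the 9 genes that fell with all libraries and the scaling used here. With scaling by library totals *F7* was called lower as well, and without PBS replicate 3 *Thbs1* was called lower in frHMGB1. It is a gene of 1 exon on chromosome 2 (148404466 to 148408188, minus strand, ENSMUSG00000074743). Its normalized counts were 756, 795 and 224 in PBS and 644, 625 and 619 in frHMGB1. They fell to 30.2, 52.1 and 57.2 in dsHMGB1, 72.4, 71.7 and 41.2 in LPS and 64.7, 62.1 and 47.5 in LPS/IFNγ. Even the lowest PBS library, replicate 3, lay above all 9 libraries of these conditions. Compared with PBS, the level was 12.7-fold lower in dsHMGB1 (log2 fold change -3.67, SE 0.41, adjusted p = 1.14e-05), 9.58-fold lower in LPS (-3.26, SE 0.41, adjusted p = 1.79e-05) and 10.2-fold lower in LPS/IFNγ (-3.35, SE 0.41, adjusted p = 1.30e-05). Among these 3 conditions no difference in *Thbd* was called, and the interval of the log2 difference between dsHMGB1 and LPS was -1.24 to 0.43. Endothelial cells carry thrombomodulin. Of the 7 endothelial markers, *Kdr* lay higher in every LPS/IFNγ library than in PBS, *Emcn* and *Esam* lay lower, 4 overlapped, and each marker other than *Kdr* stayed at or below 71.1 normalized counts in all libraries. Their part in the fall of *Thbd* was not tested.

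*Thbs1*, which encodes thrombospondin-1, a matrix protein that binds CD36 and CD47 and activates latent TGF-β, was called higher than in PBS in LPS/IFNγ alone. The gene lies on chromosome 2 (118111876 to 118127133, plus strand, ENSMUSG00000040152). Normalized counts of *Thbs1* were 3529, 3797 and 904 in PBS and 2069.6, 2136 and 2029 in frHMGB1. They were 3548, 5267 and 4569.6 in dsHMGB1, 5079, 6021 and 4670.0 in LPS and 6234, 6833 and 5749 in LPS/IFNγ. PBS replicate 3 held the lowest value of all, and *Thbs1*, with 6073 bp of exon, is among the longer of the 9 genes. The log2 fold change over PBS was called in LPS/IFNγ (1.19, SE 0.38, adjusted p = 0.0192) and not in dsHMGB1 (0.70, SE 0.38, adjusted p = 0.162) or LPS (0.94, SE 0.38, adjusted p = 0.0655). The call in LPS/IFNγ was lost without LPS/IFNγ replicate 2 (adjusted p = 0.0544), with the pair fitted alone (0.0925) and with scaling by library totals (0.44, adjusted p = 0.349), and that in LPS was gained without any 1 of the PBS libraries. Without PBS replicate 3, the values were 0.28 for dsHMGB1 (adjusted p = 0.102, not called), 0.51 for LPS (adjusted p = 0.00395) and 0.77 for LPS/IFNγ (adjusted p = 1.01e-04), and *Thbs1* was then lower in frHMGB1 than in PBS (-0.82, adjusted p = 1.73e-04). Against frHMGB1, where the libraries were close together, *Thbs1* was called higher in dsHMGB1 (1.10, SE 0.38, adjusted p = 0.0307), in LPS (1.34, SE 0.38, adjusted p = 0.0129) and LPS/IFNγ (1.59, SE 0.38, adjusted p = 0.00312). Leaving out any frHMGB1 library, or dsHMGB1 replicate 2 or 3, ended the call in dsHMGB1 (adjusted p from 0.0672 to 0.0965). Scaling by library totals ended all 3 of these calls, at 0.70 for dsHMGB1 (adjusted p = 0.159), 0.60 for LPS (0.215) and 0.87 for LPS/IFNγ (0.0720).

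*F13a1*, which encodes the catalytic subunit of factor XIII and is known in resident and alternatively activated macrophages, was almost silent. The gene lies on chromosome 13 (36867178 to 37050244, minus strand, ENSMUSG00000039109). It held 405 counts in the 15 libraries together, and its normalized counts ranged from 9.37 in PBS replicate 3 to 42.1 in LPS/IFNγ replicate 2. No comparison was called, and the intervals were wide: *F13a1* differed from PBS by a log2 value of 0.81 in dsHMGB1 (95% interval -0.08 to 1.71) and 0.80 in LPS/IFNγ (-0.10 to 1.71). Changes inside these intervals were not detectable at this depth.

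**Figure D2:**
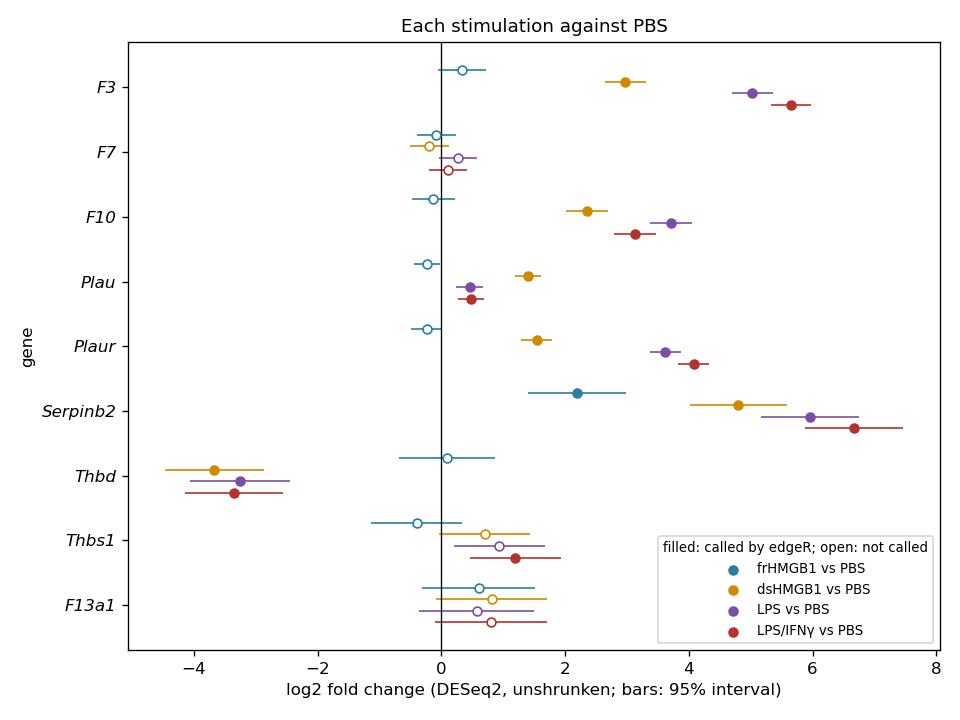
Log2 fold changes over PBS (DESeq2, unshrunken) of the 9 genes in the 4 stimulations, with bars for the 95% interval, filled points for changes called by edgeR and open points for the rest. *Serpinb2* is the only filled frHMGB1 point, and *Thbd* is the only gene with filled points left of 0.

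Both forms of HMGB1 were given at the same dose but came from different preparations. Their comparison therefore cannot tell the redox state of the protein from its preparation. In dsHMGB1, 6 of the 9 genes were higher than in frHMGB1 and 1 was lower (27.7% and 23.1% of all genes). *F3* was 6.21-fold higher (log2 difference 2.63, SE 0.17, adjusted p = 4.06e-08), *Serpinb2* 6.10-fold (2.61, SE 0.39, adjusted p = 1.19e-04) and *F10* 5.60-fold (2.49, SE 0.17, adjusted p = 1.33e-08). *Plaur* was 3.42-fold higher (1.78, SE 0.13, adjusted p = 3.64e-08) and *Plau* 3.10-fold (1.63, SE 0.11, adjusted p = 4.99e-08). *Thbd* was 13.5-fold lower (-3.76, SE 0.41, adjusted p = 9.18e-06), and *Thbs1* was the higher gene nearest the threshold. *F7* (-0.11, 95% interval -0.43 to 0.20) and *F13a1* (0.21, -0.68 to 1.10) were not called. Against frHMGB1 the counts of higher and lower genes were also 6 and 1 in LPS (25.5% and 28% of all genes) and in LPS/IFNγ (33.8% and 30.4%).

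The dsHMGB1, LPS and LPS/IFNγ libraries were then compared with each other, which asks whether a sterile alarm signal and a bacterial product, both ligands of TLR4, engage these genes alike. Between dsHMGB1 and LPS, 1 of the 9 genes was higher in dsHMGB1 and 5 were lower (15.8% and 10.6% of all genes). *Plau* was the higher gene. *F3* was 4.15-fold lower (log2 difference -2.05, SE 0.14, adjusted p = 1.57e-06), *Plaur* 4.23-fold lower (-2.08, SE 0.13, adjusted p = 7.63e-08) and *F10* 2.56-fold lower (-1.35, SE 0.17, adjusted p = 2.12e-05). *Serpinb2* (-1.15, SE 0.39, adjusted p = 0.0445) and *F7* (-0.46, SE 0.16, adjusted p = 0.0394) were near the threshold. Leaving out any 1 of the 12 libraries other than PBS ended the call of *Serpinb2* (adjusted p from 0.0598 to 0.117). In 7 of these cases, dsHMGB1 replicate 2 or 3, LPS replicate 1, 2 or 3, or frHMGB1 replicate 1 or 2, the call of *F7* ended too (adjusted p from 0.0518 to 0.116) and 3 lower genes were left. Both calls were also lost with scaling by library totals (-0.82, adjusted p = 0.139, and -0.13, adjusted p = 0.420). *Thbd* (-0.41, 95% interval -1.24 to 0.43), *Thbs1* (-0.24, -0.97 to 0.50) and *F13a1* (0.25, -0.66 to 1.15) were not called.

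Against LPS/IFNγ, 1 of the 9 genes was higher in dsHMGB1 and 4 were lower (16.5% and 16.7% of all genes). *Plau* was again the higher gene. *F3* was 6.36-fold lower (log2 difference -2.67, SE 0.14, adjusted p = 5.46e-08), *Plaur* 5.83-fold lower (-2.54, SE 0.13, adjusted p = 4.14e-09), *Serpinb2* 3.66-fold lower (-1.87, SE 0.39, adjusted p = 0.00193) and *F10* 1.70-fold lower (-0.77, SE 0.17, adjusted p = 0.00101). Without PBS replicate 3, which enters the shared estimate of the spread, *F7* (-0.26, adjusted p = 0.00684) and *Thbs1* (-0.45, adjusted p = 0.00251) were called lower as well.

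Between LPS/IFNγ and LPS, 2 of the 9 genes were higher and 1 was lower (16.3% and 9.36% of all genes). *F3* (log2 difference 0.62, SE 0.13, adjusted p = 0.00683) and *Plaur* (0.46, SE 0.13, adjusted p = 0.00521) were the higher genes and *F10* (-0.59, SE 0.17, adjusted p = 0.0106) the lower one. *Serpinb2* was 1.64-fold higher in LPS/IFNγ with no overlap of the libraries (0.72, SE 0.39, adjusted p = 0.167), which was not called with all 15 libraries and was called without PBS replicate 3 (adjusted p = 1.20e-06) or with the pair fitted alone (2.06e-10). The call of *F3* was lost without LPS replicate 3 (adjusted p = 0.0604). The sources differ on whether the LPS dose was the same in these groups, so IFNγ and the LPS dose cannot be told apart here. These comparisons share their libraries and are not independent of each other.

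**Figure D3:**
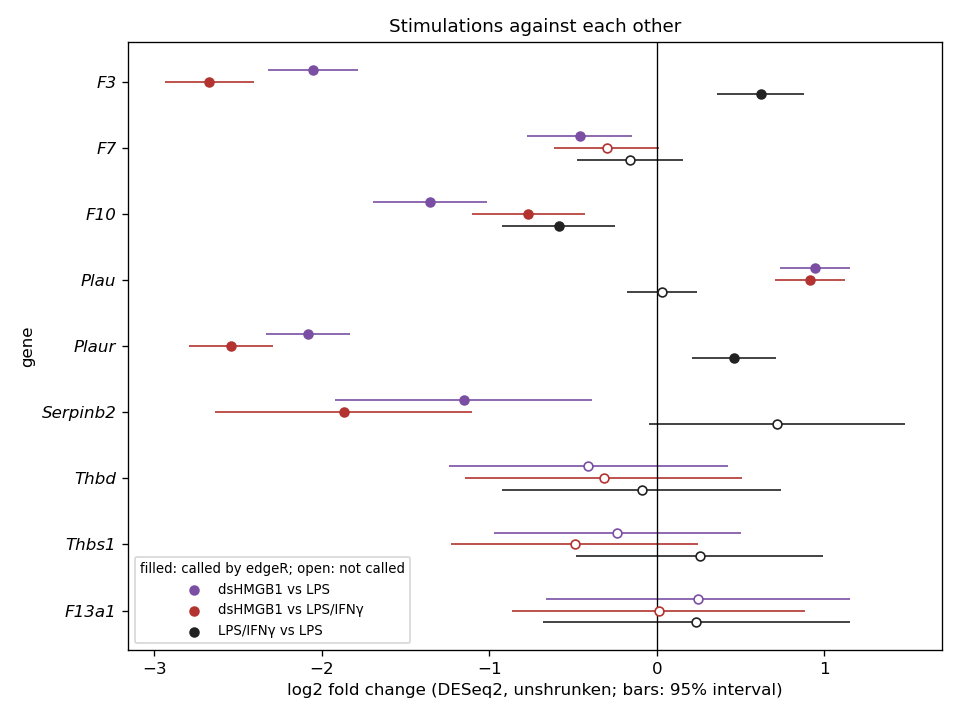
Log2 fold changes (DESeq2, unshrunken) of the 9 genes for dsHMGB1 against LPS, dsHMGB1 against LPS/IFNγ and LPS/IFNγ against LPS, with bars for the 95% interval and filled points for changes called by edgeR. *Plau* is the only gene with filled dsHMGB1 points right of 0, and *F10* is the only gene lower in LPS/IFNγ than in LPS among the filled points.

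Ratios between genes within a library do not depend on how libraries are scaled, so opposing members of the system were set against each other per kb of exon. The ratio of *F3* to *Thbd*, procoagulant over anticoagulant cofactor, lay between 0.0993 and 0.231 in PBS and between 0.139 and 0.159 in frHMGB1. It lay between 9.88 and 21.1 in dsHMGB1, between 34.3 and 51.7 in LPS and between 52.3 and 78.5 in LPS/IFNγ. Tissue factor transcripts were thus the rarer of the pair in all 6 control and frHMGB1 libraries and the commoner in the other 9. The ratio of *F10* to *F7* was 1.89 to 2.26 in PBS, 1.99 to 2.23 in frHMGB1, 11.98 to 13.1 in dsHMGB1, 22.6 to 24.0 in LPS and 16.2 to 18.6 in LPS/IFNγ. PBS replicate 3 (2.23) lay between the other PBS libraries for this ratio. For *F3* to *Thbd* it stood apart, at 0.231 against 0.110 and 0.0993.

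The receptor and its ligand parted ways between the stimulations. The ratio of *Plaur* to *Plau* was 0.736 to 0.960 in PBS, 0.750 to 0.994 in frHMGB1 and 0.864 to 1.03 in dsHMGB1 (exact permutation test between dsHMGB1 and PBS, two-sided, p = 0.5). It was 7.49 to 8.04 in LPS and 10.4 to 10.6 in LPS/IFNγ. The dsHMGB1 libraries therefore overlapped PBS, and the LPS and LPS/IFNγ libraries stood clear of them. With 3 libraries against 3, the exact permutation test cannot go below p = 0.1, and it gave that value for the ratios of *F3* to *Thbd* and *F10* to *F7* against PBS in dsHMGB1, LPS and LPS/IFNγ.

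**Figure D4:**
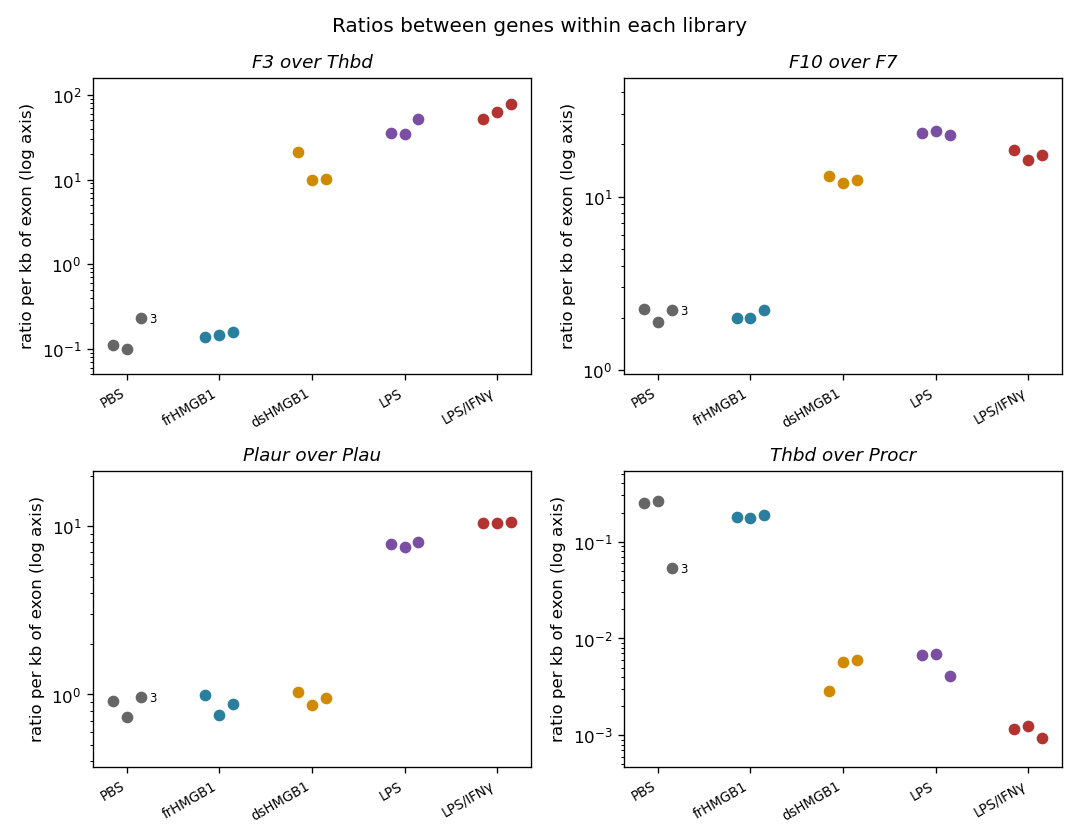
Ratios of normalized counts per kb of exon within each library (log axis), 3 points per condition, with PBS replicate 3 marked. *F3* over *Thbd* crosses 1 between the frHMGB1 and dsHMGB1 libraries, whereas *Plaur* over *Plau* stays near 1 in dsHMGB1 and exceeds 7 in LPS and LPS/IFNγ. *Thbd* over *Procr*, an anticoagulant receptor described further on, is lowest in LPS/IFNγ.

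Per kb of exon the order of the 9 transcripts also changed. In PBS, *F10* (mean 1600.4 normalized counts per kb), *Plau* (1586) and *Plaur* (1375) led with overlapping libraries, followed by *F7* (750.5), *Thbs1* (452), *Thbd* (159), *Serpinb2* (22.0), *F3* (19.1) and *F13a1* (2.51). In dsHMGB1, *F10* (8200.5) led ahead of *Plau* (4182) and *Plaur* (3988). In LPS/IFNγ, *Plaur* (23254) led ahead of *F10* (13954), and *Serpinb2* (2295) and *Plau* (2219) had overlapping libraries. *Thbd* went from the sixth place in PBS to the eighth in dsHMGB1, LPS and LPS/IFNγ.

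The rest of the pathway was taken from a list of 52 genes. Of these, 34 were tested, 18 had too few counts, and 5 of the 18 (*F13b*, *Fgg*, *Kng1*, *Proc* and *Vtn*) had 0 counts in all libraries, for which 3 counts of the 894481445 sequenced is the limit that counting allows. Prothrombin (*F2*, 3 counts), plasminogen (*Plg*, 2), *Cpb2* (2) and *F12* (1) were at or under that limit, and the fibrinogen genes *Fga* and *Fgb* held 6 and 10 counts. The macrophages thus carried hardly any transcripts of prothrombin, plasminogen and fibrinogen, which the liver is known to make. This does not hold for *F10*, whose product is also a plasma substrate. In frHMGB1, edgeR called 0 of the 34 in either direction, where 1 was higher and 3 were lower at an unadjusted p under 0.05 and DESeq2 called 0 higher and 2 lower. Without PBS replicate 3, edgeR called 2 higher and 3 lower in frHMGB1, against 8.41% and 9.09% of all genes in that fit. In dsHMGB1, 10 were higher and 6 lower (against 23.3% and 24.2% of all genes), in LPS 13 and 10 (26.7% and 36.2%), and in LPS/IFNγ 14 and 9 (29% and 31.2%). These became, when PBS replicate 3 was left out, 12 and 9 (29.8% and 29% of all genes), 16 and 9 (32.9% and 38.3%), and 15 and 10 (33.3% and 34.4%). The median log2 fold change of the 34 was -0.09, 0.35 and 0.10.

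Of 8 listed fibrinolysis genes 4 were tested, and 3 of these were higher in each of dsHMGB1, LPS and LPS/IFNγ, where 23.3%, 26.7% and 29% of all genes were. *Serpine2*, an inhibitor of thrombin and urokinase, was not called in any of the 3, and was named after its values were seen. Without PBS replicate 3, *Serpine2* was called higher in LPS (0.32, adjusted p = 0.00167). *Plat*, which encodes the tissue-type plasminogen activator, was at 24.6, 37.8 and 11.7 normalized counts in PBS, 157, 131 and 158 in dsHMGB1, 512, 560.4 and 631 in LPS and 234, 232 and 204 in LPS/IFNγ. Like *F10*, *Plat* was called lower in LPS/IFNγ than in LPS (-1.35, SE 0.25, adjusted p = 0.00532). *Serping1*, the C1 inhibitor that also blocks factor XIIa and kallikrein, rose on the log2 scale by 1.61 (SE 0.13, adjusted p = 3.18e-07) in dsHMGB1, 2.46 (SE 0.13, adjusted p = 3.75e-09) in LPS and 3.37 (SE 0.13, adjusted p = 1.58e-10) in LPS/IFNγ.

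Among anticoagulants, 6 of 10 listed genes were tested. In dsHMGB1 1 was higher and 0 were lower (against 23.3% and 24.2% of all genes). In LPS 3 were higher and 2 lower (26.7% and 36.2%), and in LPS/IFNγ also 3 and 2 (29% and 31.2%). Without PBS replicate 3, *Tfpi* (-0.38, adjusted p = 0.00414), *Pros1* (-0.28, adjusted p = 0.00433) and *Proz* (-0.69, adjusted p = 5.57e-04) were called lower in dsHMGB1 as well. *Procr*, the receptor that presents protein C to the complex of thrombin and thrombomodulin, rose where *Thbd* fell: its normalized counts were 1654, 1631 and 2290.3 in PBS, 5804, 5009 and 5259.8 in dsHMGB1, 5899.9, 5672 and 5480.2 in LPS and 30377, 27276 and 27888 in LPS/IFNγ. The log2 fold change of *Procr* over PBS was 1.53 (SE 0.13, adjusted p = 7.97e-08) in dsHMGB1 and 3.94 (SE 0.13, adjusted p = 9.20e-12) in LPS/IFNγ, and LPS/IFNγ exceeded LPS by 2.33 (SE 0.13, adjusted p = 1.31e-08). *Pros1*, which encodes protein S, the cofactor of activated protein C, rose mainly in LPS/IFNγ, where it exceeded LPS by 2.37 (SE 0.09, adjusted p = 7.45e-09), and its value in dsHMGB1 over PBS was -0.20 (SE 0.09, adjusted p = 0.105), not called. *Tfpi*, the inhibitor of the complex of tissue factor and factor VIIa, fell in LPS (-0.47, SE 0.13, adjusted p = 0.00339) and LPS/IFNγ (-0.37, SE 0.13, adjusted p = 0.0194), the conditions in which *F3* was highest. The ratio of *Thbd* to *Procr* per kb was 0.0533 to 0.266 in PBS, against 0.00284 to 0.00593 for dsHMGB1 and 0.00093 to 0.00124 for LPS/IFNγ. PBS replicate 3 held the 0.0533, against 0.249 and 0.266 in the other PBS libraries. Endothelial cells are known to express *Procr*, *Tfpi*, *Thbd* and *Vwf*. Of the endothelial markers 5 of 7 passed the filter, and *Kdr*, at 562 to 1228 normalized counts in PBS and 7118 to 7641 in LPS/IFNγ, made up most of their sum. Their part in these results was not tested.

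Of the clotting factors and fibrinogen genes, 5 of 14 were tested. In dsHMGB1 1 was higher (*F9*) and 1 lower (*Vwf*), in LPS 1 was higher (*F9*) and 2 lower (*Vwf* and *F8*), and in LPS/IFNγ 2 were higher (*F5* and *F9*) and 1 lower (*Vwf*). Of all genes, 23.3%, 26.7% and 29% were higher in these conditions, and 24.2%, 36.2% and 31.2% were lower. The call of *F8* in LPS was lost without PBS replicate 3 (adjusted p = 0.0744). *F5*, *F8* and *F9* had means below 100 normalized counts over the 15 libraries and were named after their values were seen. *Vwf*, which encodes the von Willebrand factor of endothelial cells and platelets, held 6368, 6370.0 and 4242 normalized counts in PBS and 2746, 2839 and 2777 in LPS/IFNγ. The difference of *Vwf* from PBS on the log2 scale was -0.82 (SE 0.14, adjusted p = 4.21e-04) in dsHMGB1, -0.96 (SE 0.14, adjusted p = 4.67e-05) in LPS and -1.02 (SE 0.14, adjusted p = 3.69e-05) in LPS/IFNγ. The summed megakaryocyte and platelet markers, of which 3 of 8 passed the filter, went from 5.03 to 8.66 CPM in PBS to 0.548 to 0.964 CPM in LPS/IFNγ, with 3 to 5 of the 8 at 0 counts in a condition, and their part was not tested.

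Of 4 genes for protease-activated receptors, the family of the thrombin receptor, 3 were called higher in dsHMGB1 (*F2r*, *F2rl1* and *F2rl2*, against 23.3% of all genes). In LPS and LPS/IFNγ 2 were called higher (*F2r* and *F2rl1*, against 26.7% and 29%), while *F2rl3* was not called in any. Without PBS replicate 3, *F2rl2* was called higher in LPS too (1.12, adjusted p = 0.0221). *F2rl1*, *F2rl2* and *F2rl3* had means below 100 normalized counts over the 15 libraries and were named after their values were seen. *F2r*, the main thrombin receptor PAR1, held 40.7, 22.7 and 4.69 normalized counts in PBS, 424, 545 and 459.8 in dsHMGB1, 219.8, 294 and 276 in LPS and 289.5, 273 and 313 in LPS/IFNγ. Every dsHMGB1 library exceeded every LPS library, as for *Plau*, but the log2 difference of 0.86 (SE 0.37, adjusted p = 0.105) was not called with all 15 libraries and was called without PBS replicate 3 (0.88, adjusted p = 3.82e-04).

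Of the receptors and partners of plasminogen and urokinase, 7 of 8 were tested. In dsHMGB1 0 were higher and 3 lower (against 23.3% and 24.2% of all genes). In both LPS (26.7% and 36.2%) and LPS/IFNγ (29% and 31.2%) 2 were higher and 3 lower. Without PBS replicate 3, *Anxa2* (0.51, adjusted p = 1.68e-05) and *S100a10* (0.32, adjusted p = 0.0202) were called higher in dsHMGB1, and *Plgrkt* lost its lower call there. In LPS/IFNγ, *S100a10* (1.24) and *Itgam* (0.19) were then called higher, and *Mrc2* lost its call. *Itgb3*, the β3 integrin that binds uPAR, vitronectin and fibrinogen, fell from 3039, 3211 and 2996 normalized counts in PBS to 919, 974 and 1026 in dsHMGB1 and 503, 534 and 547 in LPS, a log2 fold change of -1.66 (SE 0.08, adjusted p = 1.28e-08) and -2.55 (SE 0.09, adjusted p = 1.18e-10). *Lrp1*, the endocytic receptor that clears complexes of urokinase and its inhibitors, fell in LPS (log2 fold change -1.37, SE 0.24, adjusted p = 1.76e-04). Annexin A2 (*Anxa2*), which binds plasminogen together with *S100a10*, rose in LPS (1.02, SE 0.23, adjusted p = 7.32e-04) and LPS/IFNγ (1.09, SE 0.23, adjusted p = 3.28e-04). *S100a10* was not called in LPS (0.46, SE 0.42, adjusted p = 0.346). PBS replicate 3 held 16127 normalized counts of *S100a10* against 4197 and 3752 in the other PBS libraries, and without that library it was called higher (1.42, adjusted p = 4.59e-09). *Plgrkt* and *Mrc2* moved little, with log2 fold changes of -0.35 and 0.47 in LPS, both called with all libraries, and *Plgrkt* lost its call without PBS replicate 3.

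The enzymes of the vitamin K cycle, which the clotting proteases need for their modified glutamates, were called lower in LPS and LPS/IFNγ in 3 of 3 genes and in dsHMGB1 in 2 of 3, where 36.2%, 31.2% and 24.2% of all genes were called lower. *Vkorc1l1* (-0.83, SE 0.13, adjusted p = 7.94e-05 in LPS) and *Ggcx* (-0.70, SE 0.19, adjusted p = 0.00339 in LPS) kept these calls without PBS replicate 3. *Vkorc1* did not: its PBS libraries held 337, 319.7 and 1177 normalized counts, and without the third its log2 difference in LPS was -0.02. Thrombospondins and their receptors gave 2 higher of 5 in each of dsHMGB1, LPS and LPS/IFNγ, *Cd47* and *Thbs4*, where 23.3%, 26.7% and 29% of all genes were higher. Without PBS replicate 3, *Thbs2* was called lower in each (-0.84, -0.46 and -0.53), as was *Cd36* (-0.21, -0.23 and -0.26). *Cd47*, the receptor of thrombospondin-1 that binds SIRPα, rose on the log2 scale by 1.43 (SE 0.11, adjusted p = 4.84e-08) in dsHMGB1, 1.46 (SE 0.11, adjusted p = 3.42e-08) in LPS and 1.39 (SE 0.11, adjusted p = 4.07e-08) in LPS/IFNγ. *Thbs4* had 0 counts in all PBS and frHMGB1 libraries, 47 over the dsHMGB1 libraries, 802 over LPS and 6288 over LPS/IFNγ. Set against a floor of 3 counts over the PBS group, *Thbs4* was at least 12.9-fold higher in dsHMGB1, at least 304.8-fold higher in LPS and at least 1709.4-fold higher in LPS/IFNγ in CPM.

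**Figure D5:**
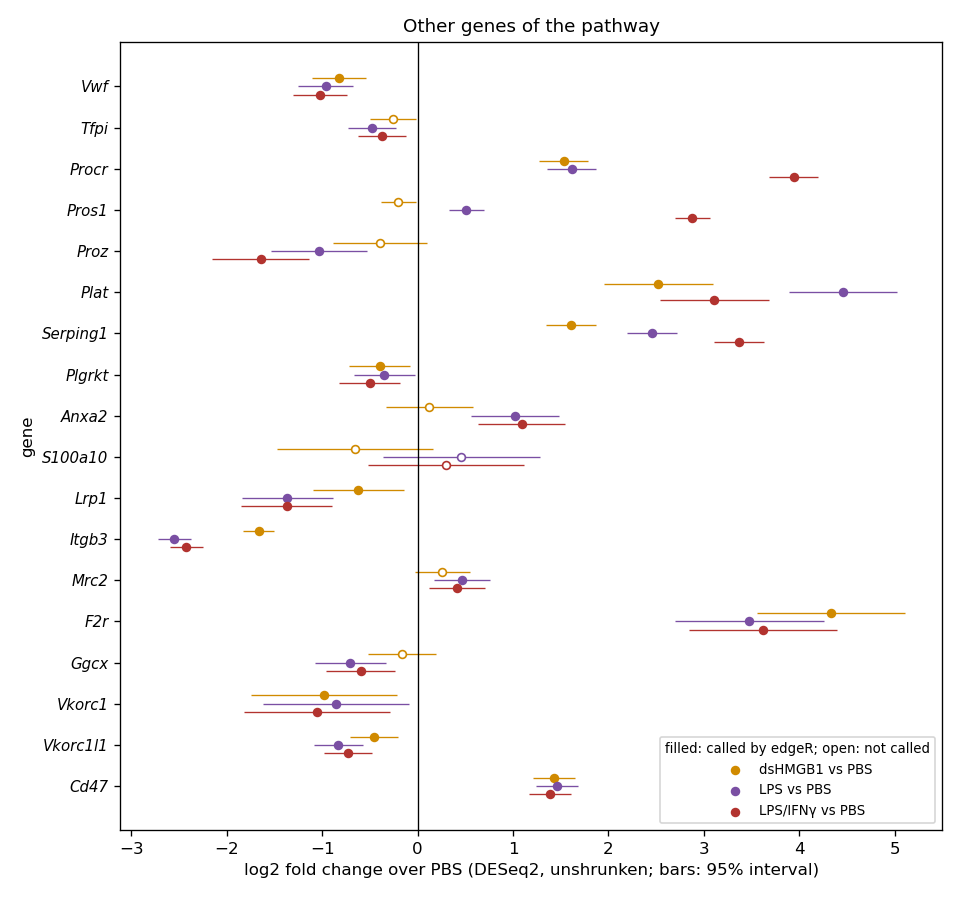
Log2 fold changes over PBS (DESeq2, unshrunken) of 18 other genes of the pathway in dsHMGB1, LPS and LPS/IFNγ, with bars for the 95% interval and filled points for changes called by edgeR. *Plat* and *F2r* lie beyond 2 in each condition, *Itgb3* lies lowest, and *Procr* and *Pros1* separate LPS/IFNγ from the other conditions. *Thbs4*, at 0 counts in PBS, is not drawn.

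The genes most like each member were found over the 15 libraries by Pearson's r of log2 CPM among 10102 protein-coding genes, as a description, since the libraries share 5 conditions and scaling. *Plau*, with its peak in dsHMGB1, was closest to *Lrrc75a* (r = 0.954), *Slc39a13* (0.937) and *Gm10134* (0.926), whose mean normalized counts were also highest in dsHMGB1. *F10* was closest to *Nub1*, *Tagln2* and *Pigv* (each r = 0.997), which likewise peaked in LPS and not in LPS/IFNγ. *Serpinb2*, which already differed in frHMGB1, was closest to *Osmr* (r = 0.991), *Lilr4b* (0.989) and *Efhd2* (0.987), and the mean of *Osmr* went from 42.0 in PBS to 98.1 in frHMGB1 and 627 in LPS/IFNγ. *F3* was closest to *Ube2e1*, *Tpx2* and *Pfkp* (r from 0.996 to 0.997), *Plaur* to *Il17ra* (r = 0.997) and *Mpp1* (0.996), and *Thbd* to *Acsl3*, *Shc2* and *Nbr1* (r from 0.982 to 0.989). *Thbs1* followed *Taok1*, *Nufip2* and *Cdk12* (r from 0.979 to 0.981). The likeness was weaker for *F7* (*Setd3*, *Tmsb10* and *Dnttip1*, r from 0.896 to 0.939) and weakest for *F13a1* (*Mtcp1*, *Emilin2* and *Utp4*, r from 0.707 to 0.793).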

How the data were processed

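RNA of 15 BMDM cultures, 3 per condition, had been sequenced by the authors as stranded, paired-end mRNA libraries (CASAVA for base calls, STAR for alignment to GRCm38, both per the labels), and the authors deposited 1 table of raw read counts per gene. The sources used here do not give the counting program or its annotation. The study used DESeq2 with a cut-off on the fold change and no p-value. Here the deposited counts were tested in edgeR 4.0.16 with its quasi-likelihood F test, under R 4.3.3 (TMM scaling, 1 fit over the 15 libraries with a term per condition, filterByExpr with a minimum count of 10 and a minimum total of 15). Adjusted p is the Benjamini-Hochberg value over the 16919 genes tested, with a threshold of 0.05. Normalized counts, log2 fold changes and SEs came from DESeq2 1.42.0. Totals of 40934540 to 80925478 counts per library set the precision, and p-values measure only the spread between these libraries. The scripts were tested on simulated data. The named genes were the 9 members, the genes of the pathway list that were called in any comparison and averaged 100 normalized counts or more, and, for each member, the 3 protein-coding genes with the highest r of log2 CPM (prior count 2). Ratios within libraries were compared by exact two-sided permutation tests (scipy 1.17.1). Alternatives were the DESeq2 Wald test, its size factors, other filters, protein-coding genes only, a replicate block, separate fits of each pair of conditions, the omission of each library, and, chosen after seeing the data, scaling by library totals and an offset for exon length. The members and lists were chosen with earlier results of these data known. A few items that the rule would name are not reported here.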

Additional observations from a re-analysis of the deposited data

How the results depend on the processing

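Of the values recomputed under 24 alternatives, 2045 kept their direction and their side of the threshold, 38 lost and 29 gained a call, and 38 changed direction. In 8 of these 38 the value was called before or after the change, all from scaling by library totals, for *Plau* and *F7* in LPS and LPS/IFNγ. *Plau* was then -0.24 in LPS and -0.20 in LPS/IFNγ against PBS, and -0.055 and -0.013 against frHMGB1. *F7* was -0.40 and -0.55 against PBS, and -0.39 and -0.54 against frHMGB1. The 30 others were called in neither fit. With that scaling they were *F7* (0.022) and *Thbd* (0.0088) in dsHMGB1 against LPS/IFNγ, *Thbs1* in dsHMGB1 against LPS (0.098), and *F13a1* in LPS against PBS (-0.16) and in dsHMGB1 (-0.19) and LPS/IFNγ (-0.53) against frHMGB1. The others that leaving out 1 library turned are given by their range over the 15 libraries. Against PBS, frHMGB1 ranged from -0.18 to 0.14 for *F7*, -0.22 to 0.15 for *F10* and -0.31 to 0.36 for *Thbd*, and *F7* ranged from -0.32 to 0.0026 for dsHMGB1 and from -0.032 to 0.27 for LPS/IFNγ. The LPS/IFNγ difference from LPS ranged from -0.0064 to 0.068 for *Plau*, -0.33 to 0.034 for *Thbd* and -0.085 to 0.53 for *F13a1*. *F13a1* also ranged from -0.098 to 0.42 in dsHMGB1, -0.40 to 0.18 in LPS and -0.17 to 0.44 in LPS/IFNγ against frHMGB1, and from -0.26 to 0.35 in dsHMGB1 against LPS/IFNγ. With the length offset *F7* was 0.037 in dsHMGB1 and 0.067 in frHMGB1 against PBS, and with no filter *F7* in dsHMGB1 (0.00062) and *F13a1* in LPS (0.046) against frHMGB1 turned.

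Scaling by library totals left 4 members called higher in LPS and in LPS/IFNγ against PBS and against frHMGB1, and 5 in dsHMGB1 against each. Of all 16919 genes, 2653, 2976 and 2615 were then higher in LPS, LPS/IFNγ and dsHMGB1 against PBS. Against frHMGB1 they were 2464, 3740 and 3337. Under that scaling 2 members were called lower in dsHMGB1, LPS and LPS/IFNγ against PBS and in the same conditions against frHMGB1, and 3 were lower in dsHMGB1 against LPS. The genes called lower among all 16919 were 6689, 9458 and 8782 in these conditions against PBS. They were 6340, 8204 and 8322 against frHMGB1, and 885 in dsHMGB1 against LPS. When each pair of conditions was fitted alone, 0 members were higher in frHMGB1 than in PBS, where 7 of 14887 genes were. In LPS/IFNγ against LPS, 4 members were higher and 2 lower, against 4564 and 4435 of 14738 genes. Leaving out 1 library at a time gave 0 to 1 lower members in frHMGB1 against PBS, 5 to 7 higher in LPS and in LPS/IFNγ against PBS, 3 to 5 lower in dsHMGB1 against LPS, 4 to 6 lower in dsHMGB1 against LPS/IFNγ, and 1 to 3 higher in LPS/IFNγ against LPS. Without PBS replicate 3, 9.09% of all genes were lower in frHMGB1 than in PBS. In that fit 25.4% were lower in dsHMGB1 than in LPS/IFNγ, and 25.1% were higher in LPS/IFNγ than in LPS. The cause was not tested. *F13a1*, with 405 counts in all, was limited by depth.

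The labels number the replicates alike in each condition, but 1 of 30 correlations between same-numbered libraries was over 0.1 (range -0.386 to 0.375), so the numbers are not taken as pairs. With a replicate block, 3 members were lower in dsHMGB1 than in LPS, since *Serpinb2* (adjusted p = 0.0569) and *F7* (0.0574) were no longer called, and *Thbs1* was called higher in LPS than in PBS (0.0431).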
